A study of Homo sapiens with 2 samples.

Results

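The genes described here are 10 genes whose DNA methylation is used, or has been proposed, as a marker of colorectal cancer: *VIM*, *TFPI2*, *NDRG4*, *SEPT9*, *SDC2*, *EYA4*, *IKZF1*, *BCAT1*, *CNRIP1* and *TMEFF2*. The rule takes them by name, and all 10 were found among the 33538 genes of both count tables. HCT116, an established human colon cancer cell line, was either mock-treated or given 0.5 μM of decitabine (DAC), which was added on days 1 and 3. The drug was withdrawn by a change of medium on day 5, and cells were harvested on day 7. What the mock-treated cells received in place of DAC is not given in the labels. Cells were profiled by droplet single-cell RNA-sequencing with 3′ counting, in 1 library of 1783 mock-treated cells and 1 library of 1751 DAC-treated cells. With 1 library per condition there is no replicate, so no test between the conditions is given. Intervals are exact 95% intervals and cover counting error only.

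In colorectal tumors, cytosines followed by guanines (CpG sites) in the promoters of these genes are often methylated, and the methylated DNA can be detected in stool or plasma. Methylation of a promoter CpG island is commonly accompanied by absence of the transcript. DAC is a cytosine analog that is incorporated into DNA during replication and traps the maintenance DNA methyltransferase, so methylation is diluted as cells divide. A marker gene can be unmethylated in a given line, and some marker genes have several promoters. DNA methylation was not analyzed here.

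The promoters show how much CpG sequence lies beside the starts. Of the 10 genes, 8 had an entry in the RefSeq promoter table (GRCh38.p14), and *SDC2* and *CNRIP1* had none. The 200 bases upstream of the transcription start are shown for the 6 genes with at least 20 UMIs in both libraries together, 5′ to 3′ on the strand of the gene, with every CG in capitals. For a gene with several starts, the window with the most CG is shown.
TFPI2, chr7:93890754-93890953, minus strand: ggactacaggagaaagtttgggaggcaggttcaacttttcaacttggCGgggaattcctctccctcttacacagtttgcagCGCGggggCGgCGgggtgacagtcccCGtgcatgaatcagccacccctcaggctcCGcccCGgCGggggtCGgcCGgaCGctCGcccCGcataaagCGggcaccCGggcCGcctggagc
BCAT1, chr12:24902901-24903100, minus strand: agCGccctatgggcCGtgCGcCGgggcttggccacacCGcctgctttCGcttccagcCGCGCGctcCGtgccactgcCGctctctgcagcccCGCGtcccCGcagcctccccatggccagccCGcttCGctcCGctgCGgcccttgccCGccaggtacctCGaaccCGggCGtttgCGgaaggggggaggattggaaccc
EYA4, chr6:133241157-133241356, plus strand: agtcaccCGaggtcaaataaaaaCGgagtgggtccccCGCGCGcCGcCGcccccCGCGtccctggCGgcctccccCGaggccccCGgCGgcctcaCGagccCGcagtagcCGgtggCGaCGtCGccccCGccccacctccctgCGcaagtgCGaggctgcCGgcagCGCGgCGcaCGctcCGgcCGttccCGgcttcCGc
VIM, chr10:17228041-17228240, plus strand: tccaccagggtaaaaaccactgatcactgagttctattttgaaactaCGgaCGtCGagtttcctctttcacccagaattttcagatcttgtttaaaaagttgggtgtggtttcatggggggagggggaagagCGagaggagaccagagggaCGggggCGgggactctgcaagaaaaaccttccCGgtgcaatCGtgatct
SEPT9, chr17:77281299-77281498, plus strand: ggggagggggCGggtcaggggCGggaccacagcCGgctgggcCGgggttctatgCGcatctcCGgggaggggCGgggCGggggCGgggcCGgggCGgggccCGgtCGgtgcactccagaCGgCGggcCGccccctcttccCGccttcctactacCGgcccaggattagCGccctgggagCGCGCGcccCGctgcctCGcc
NDRG4, chr16:58463515-58463714, plus strand: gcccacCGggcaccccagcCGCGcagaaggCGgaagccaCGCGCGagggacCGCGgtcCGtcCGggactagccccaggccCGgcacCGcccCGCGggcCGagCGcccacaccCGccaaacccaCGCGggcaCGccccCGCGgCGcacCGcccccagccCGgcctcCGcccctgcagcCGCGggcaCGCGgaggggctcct

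The 3 windows of *TFPI2*, *BCAT1* and *EYA4* held 17, 23 and 31 CG, and that of *VIM* held 8. *TFPI2*, *EYA4* and *VIM* had 1 start each in the promoter table. *BCAT1* had 5 starts, with 6 CG beside the poorest. A 200-base window held at least 1 CG in 92.0% of the 35116 windows of the table, with a median of 9 CG. When the CG-richest window of each of 27305 genes was taken, the median was 10 CG, so *VIM* lay just below it and the other shown genes lay above. *SEPT9* had 10 starts in the table, with 24 CG beside the CG-richest start and 1 CG beside the poorest. *NDRG4* had 4 starts, with 31 CG beside the richest and 2 beside the poorest. Reads near the 3′ end do not tell which of these starts was used. The windows of *IKZF1* and *TMEFF2* are not printed. *IKZF1* had 3 starts, with 21 CG beside the richest and 0 beside the poorest, and the 1 window of *TMEFF2* held 16.

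The mock-treated library held 49911689 UMIs (unique molecular identifiers, each counting 1 captured RNA molecule) (median of 27899 in a cell). The DAC-treated library held 59046165 UMIs (median of 35340 in a cell). Mitochondrial UMIs made up over 50% of the total in 311 mock-treated and 319 DAC-treated cells. The libraries shared 12 barcodes, and the mock-treated cells with these barcodes held 6 *VIM* UMIs. All 7 epithelial markers examined (*EPCAM*, *KRT8*, *KRT18*, *KRT19*, *CDH1*, *CLDN4* and *CDX2*) had a UMI in at least 20% of the cells of both libraries. Their summed level was 5030 UMIs per 1000000 UMIs of the library (CPM) in mock-treated and 7992 CPM in DAC-treated cells, the difference lying mostly in *KRT18* and *KRT8*, while *EPCAM*, *CLDN4* and *CDH1* had ratios of 0.636, 0.314 and 0.916.

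In mock-treated cells, the 10 genes fell into 3 classes. *TFPI2*, *SDC2*, *IKZF1*, *CNRIP1*, *TMEFF2*, *BCAT1* and *EYA4* were each detected in less than 1% of the mock-treated cells, and 5 of these 7 had no UMI there. A gene without a UMI was read as below a floor of 3 counts, which is 0.168% of the 1783 cells and 0.0601 CPM. *VIM* and *NDRG4* were detected in 12.1% and 6.11% of the mock-treated cells. *SEPT9* was detected in 63.9% of them. The marker genes thus ranged from undetected to broadly expressed in the same mock-treated line.

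In DAC-treated cells, 9 of the 10 genes had a higher CPM than in the mock-treated library, and *NDRG4* had a lower one. One of the 9, *IKZF1*, rests on a single UMI, and of the 25429 genes with a UMI in either library, 65.4% had a higher CPM in DAC-treated cells. The 5 genes without a UMI in the mock-treated library all had at least 1 UMI in the DAC-treated library. Detection there was common among silent genes in general. Of the 12414 genes without a UMI in mock-treated cells, 34.7% were detected in DAC-treated cells, and of the 4152 protein-coding genes among them, 53.1% were. *VIM*, *TFPI2*, *BCAT1* and *EYA4* were at least 2-fold higher among the 6 genes with 20 or more UMIs in both libraries together. The share of all 17368 such genes past the same fold was 22.8%. *VIM*, *TFPI2* and *BCAT1* were at least 10-fold higher, against 7.06% of all such genes, and none of the 6 was at least 2-fold lower, against 7.86%. *TFPI2*, *BCAT1* and *EYA4* reached the minimum of 20 UMIs only through the DAC-treated library, so these counts describe the genes and do not set them apart from others. With no minimum of UMIs, 6 of the 9 genes with a fold were at least 2-fold higher (all genes, 25.8% of 21034). Of the 7 genes in less than 1% of mock-treated cells, 5 were at least 2-fold higher. Among all such genes with a UMI in either library the share was 33.7% of 11099, and among the protein-coding ones 47.4% of 5131.

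**Figure D1:**
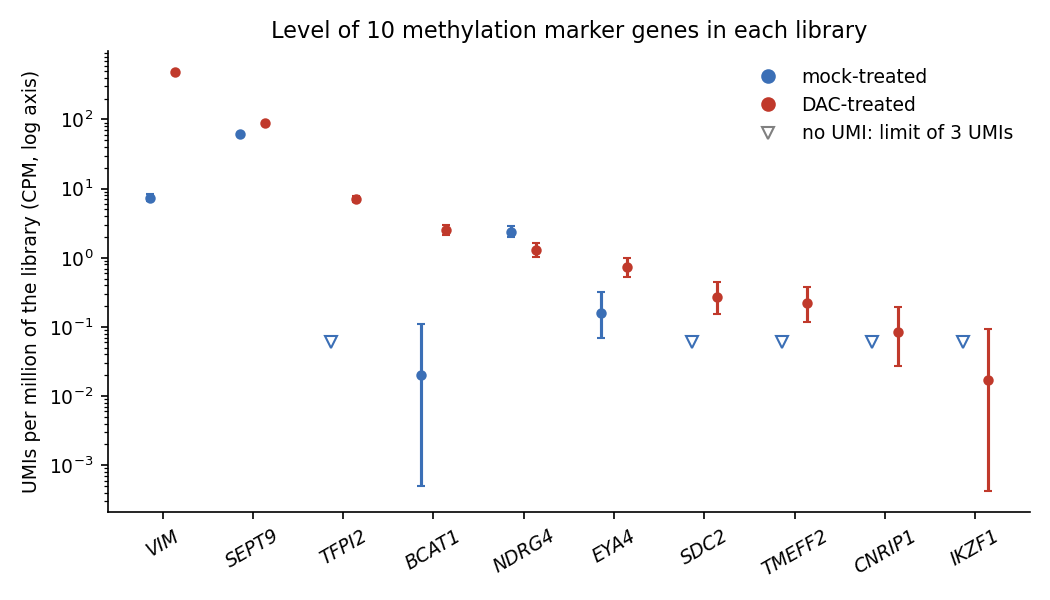
Level (CPM, log axis) for the 10 marker genes in mock-treated (blue) and DAC-treated (red) cells, 1 library each. Bars are exact Poisson 95% intervals, and open triangles give the limit of 0.0601 CPM (3 UMIs) where no UMI was found. *VIM* was at 7.43 and 484.2 CPM, *SEPT9* was high in both libraries, and *NDRG4* was the gene with the lower point in DAC-treated cells.

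*VIM* (ENSG00000026025, hg38 chr10:17228241-17237593, plus strand) encodes vimentin, the intermediate filament protein typical of mesenchymal cells, and its methylation is a stool DNA marker. The mock-treated library held 371 *VIM* UMIs (7.43 CPM, 95% interval 6.70 to 8.23) and the DAC-treated library 28589 (484.2 CPM, 478.6 to 489.8). The ratio was 65.1 (58.8 to 72.4). In order of CPM, *VIM* took place 8460 of all genes in the mock-treated and place 225 in the DAC-treated library. It was detected in 216 mock-treated cells (12.1%, 10.6 to 13.7) and in 1149 DAC-treated cells (65.6%, 63.3 to 67.8). The study called a gene upregulated in a cell at 3 UMIs or more. It clustered cells on genes with 2 or fewer UMIs in every mock-treated cell. *VIM*, *SEPT9* and *NDRG4* had up to 14, 15 and 3 UMIs in a mock-treated cell, so they fell outside that rule. The other 7 marker genes met it. For *VIM*, *SEPT9* and *NDRG4*, 3 UMIs or more is read here as a level and not as upregulation. At 3 UMIs or more, the share for *VIM* was 1.74% (31 cells) of mock-treated and 43.1% (754 cells) of DAC-treated cells. *VIM* therefore differed both in the number of cells with the transcript and in the amount per cell. The mean number of UMIs in a positive cell was 1.72 in mock-treated and 24.9 in DAC-treated cells, and the median was 1 and 7. The highest mock-treated cell had 14 UMIs, and 467 DAC-treated cells (26.7%, 24.6 to 28.8) exceeded it.

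*VIM* was spread unevenly over the DAC-treated cells. Of the 1751 cells, 602 had no *VIM* UMI, 395 had 1 or 2, 221 had 3 to 9, 344 had 10 to 49, 129 had 50 to 99 and 60 had 100 or more, with a maximum of 322. If every cell had carried *VIM* as the same share of its UMIs, 212.6 cells without a UMI would be expected. Many more cells thus lacked the transcript than their depth accounts for under an even share. The broadly expressed *SEPT9* showed a smaller excess, with 568 cells without a UMI against 451.9. The 175 cells with the most *VIM*, 10% of the library, held 60.2% of its UMIs. For *SEPT9* the corresponding cells held 34.9%. Among the 1120 DAC-treated cells with at least 10000 UMIs and at most 50% mitochondrial UMIs, 210 (18.8%) had no *VIM*, the quartiles were 0.220, 1.37 and 7.08 UMIs per 10000 UMIs of the cell, and the highest cell reached 77.5. Among the 1298 mock-treated cells past the same limits, 1090 (84.0%) had no *VIM*. The annotation places *VIM-AS1* on the opposite strand of *VIM*, *GNGT1* on that of *TFPI2* and *TARID* on that of *EYA4*, and how the counting treated strand is not given in the sources used here.

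**Figure D2:**
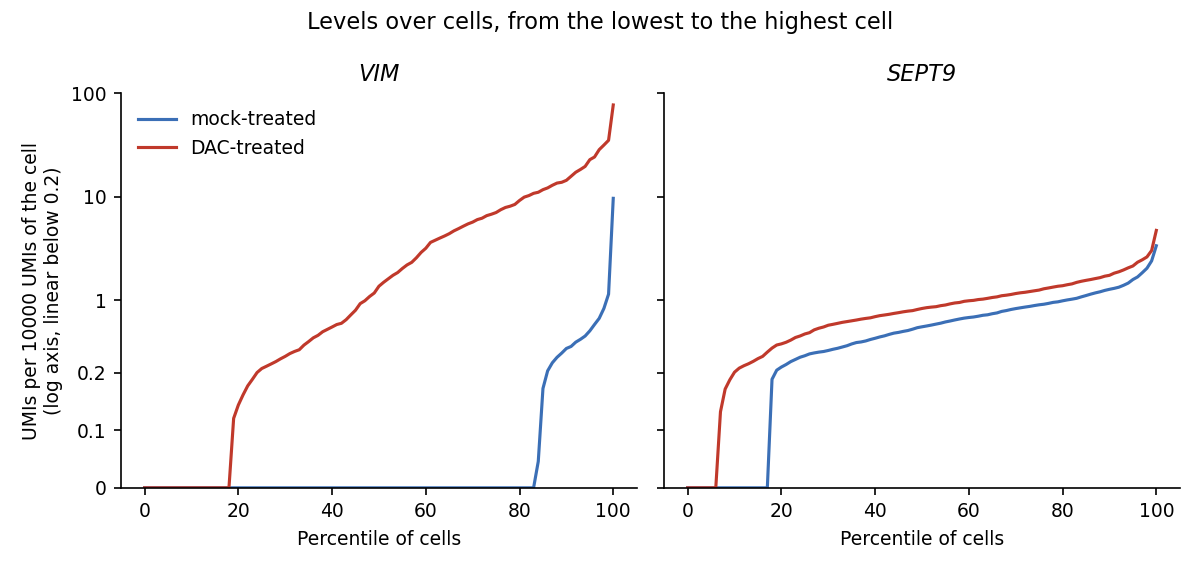
Cells with at least 10000 UMIs and at most 50% mitochondrial UMIs, ordered from the lowest to the highest, with the percentile of cells on the x axis and UMIs of the gene per 10000 UMIs of the cell on the y axis (log axis, linear below 0.2), for mock-treated (blue) and DAC-treated (red) cells. The *VIM* curves lie apart over most cells, with DAC-treated quartiles of 0.220, 1.37 and 7.08, while the *SEPT9* curves run close together, with medians of 0.557 and 0.837.

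*VIM* RNA was also found in cells with few UMIs or many mitochondrial ones. In the 631 DAC-treated cells with less than 10000 UMIs or more than 50% mitochondrial UMIs, 173 of which had 10000 UMIs or more, *VIM* was at 189.8 CPM (177.5 to 202.9), against 509.0 CPM in the other cells. *SEPT9* stood at 44.8 and 92.8 CPM in the same classes of cells. Free RNA in droplets can give single UMIs, and its part in the number of *VIM*-positive cells was not tested. The threshold of 3 UMIs was passed by 12.0% of these 631 cells and by 60.5% of the other DAC-treated cells. At an equal depth of 10000 UMIs per cell, which 395 mock-treated and 458 DAC-treated cells did not reach, the expected share of *VIM*-positive cells was 6.27% and 58.0%. Fibroblasts and leukocytes also make vimentin. The 7 fibroblast markers summed to 10.9 CPM in mock-treated and 20.1 CPM in DAC-treated cells, with *COL1A2*, *DCN*, *LUM* and *FAP* at 0 in the mock-treated library and *COL1A1*, at 10.7 CPM there, making up most of the sum. The 5 leukocyte markers summed to 6.77 and 10.5 CPM, with *PTPRC* and *CD3E* at 0 in the mock-treated library, and the 3 endothelial markers to 0.120 and 1.91 CPM. No marker of these 3 lists was at 0 in the DAC-treated library, and their part in the *VIM* level was not tested.

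*TFPI2* (ENSG00000105825, chr7:93885396-93890753, minus strand) encodes a secreted inhibitor of serine proteases such as plasmin, and its promoter above held 17 CG. It was undetected in the mock-treated library, and the DAC-treated library held 418 UMIs (7.08 CPM, 6.42 to 7.79). Set against a floor of 3 UMIs over the mock-treated library, this was at least 118-fold higher. The transcript was detected in 163 DAC-treated cells (9.31%, 7.99 to 10.8), and 34 cells (1.94%) had 3 UMIs or more. A positive cell had a mean of 2.56 UMIs, and 88 of the 163 had a single UMI. The 2 highest cells had 30 and 27 UMIs, and the 10 highest cells together held 34.2% of all *TFPI2* UMIs. An even share over cells would leave 1401 cells without the transcript, and 1588 were without it. *TFPI2* was thus found in few cells, and a small number of these had many copies.

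*BCAT1* (ENSG00000060982, chr12:24810024-24949101, minus strand) encodes the cytosolic branched-chain amino acid aminotransferase and is measured in plasma DNA together with *IKZF1*. It had 1 UMI in the mock-treated library and 151 UMIs in the DAC-treated library (2.56 CPM, 2.17 to 3.00). The ratio of 127.6 had an interval of 22.6 to 5074, since it rests on a single mock UMI. The transcript was found in 101 DAC-treated cells (5.77%, 4.72 to 6.96), of which 9 had 3 UMIs or more, and no cell had more than 5. The number of cells without the transcript, 1650, was near the 1610 of an even share.

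*EYA4* (chr6:133240514-133532128, plus strand) encodes a transcriptional coactivator with phosphatase activity of the eyes absent family. The mock-treated library held 8 UMIs (0.160 CPM) and the DAC-treated library 43 (0.728 CPM), a ratio of 4.54 (2.11 to 11.2). Cells with the transcript made up 0.449% and 2.06% of the libraries, and 32 of the 36 positive DAC-treated cells had a single UMI.

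The other 4 genes stayed near the limit of detection. *SDC2*, a transmembrane heparan sulfate proteoglycan (chr8:96493813-96611790), had 16 UMIs in 16 DAC-treated cells (0.914%), at least 4.51-fold above the floor of 3 mock UMIs. *TMEFF2*, a transmembrane protein with EGF-like and follistatin-like domains (chr2:191949043-192194933), had 13 UMIs in 13 cells (0.742%), at least 3.66-fold above it. *CNRIP1*, which binds the tail of the cannabinoid receptor CB1 (chr2:68284171-68320051), had 5 UMIs in 4 cells (0.228%), 1.41-fold above the floor. The DAC interval of *CNRIP1*, 0.0275 to 0.198 CPM, included the floor of 0.0601 CPM. The DAC intervals of *SDC2* (0.155 to 0.440 CPM) and *TMEFF2* (0.117 to 0.376 CPM) lay above the floor. *IKZF1*, a zinc finger transcription factor of lymphoid cells (chr7:50304068-50405101), had 1 UMI, and no fold is given. None of the 4 had a UMI in mock-treated cells, and none had 3 UMIs in any cell. The richest of the 3 *IKZF1* windows held 21 CG and the poorest 0, against 17 and 8 in the single windows of *TFPI2* and *VIM*. Which *IKZF1* start is used in these cells is not known.

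*SEPT9* (ENSG00000184640, chr17:77280569-77500596, plus strand, *SEPTIN9* in current annotation) encodes a GTP-binding cytoskeletal protein that forms filaments, and its methylation is a plasma DNA marker. In contrast to the preceding genes it was broadly expressed in both libraries, with 3076 UMIs in the mock-treated one (61.6 CPM, 59.5 to 63.8) and 5259 UMIs in the DAC-treated one (89.1 CPM, 86.7 to 91.5). The ratio was 1.45 (1.38 to 1.51), or 0.53 on the log2 scale, where the median of all 17368 genes was 0.29. Positive cells made up 63.9% (61.6 to 66.1) and 67.6% (65.3 to 69.8) of the libraries, and a positive cell had a mean of 2.70 and 4.45 UMIs. At 3 UMIs or more, the share was 26.5% and 45.0%. Positive cells had a median total of 32825 UMIs in the mock-treated and 45505 in the DAC-treated library, and per 10000 of their UMIs they held 0.742 and 0.970 *SEPT9* UMIs. At 10000 UMIs per cell the expected shares of positive cells were 44.1% and 54.0%. The annotation (GENCODE release 44) lists 28 starts of coding transcripts for *SEPT9*, and counts per gene do not separate the starts. It also lists 3 genes on the same strand within *SEPT9*, which were not examined separately.

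*NDRG4* (ENSG00000103034, chr16:58462846-58513628, plus strand) belongs to the N-myc downstream-regulated gene family and is a stool DNA marker. The mock-treated library held 119 UMIs (2.38 CPM, 1.98 to 2.85) and the DAC-treated library 76 (1.29 CPM, 1.01 to 1.61). The level was 1.85-fold lower, with a ratio of 0.540 (0.399 to 0.726). Positive cells made up 6.11% (5.05 to 7.33) and 4.11% (3.23 to 5.15), so the intervals of the shares touched although those of the CPM did not. Nearly all positive cells had a single UMI, 100 of 109 in the mock-treated and 69 of 72 in the DAC-treated library. The 1679 DAC-treated cells without the transcript were close to the 1678 of an even share. When the libraries were scaled by the median of gene ratios in place of their totals, *NDRG4* was lower by over 2-fold (log2 ratio -1.13), and the counts past 2-fold became 4 higher and 1 lower. Under that scaling, 18.4% of all 17368 genes were at least 2-fold higher and 11.4% at least 2-fold lower.

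**Figure D3:**
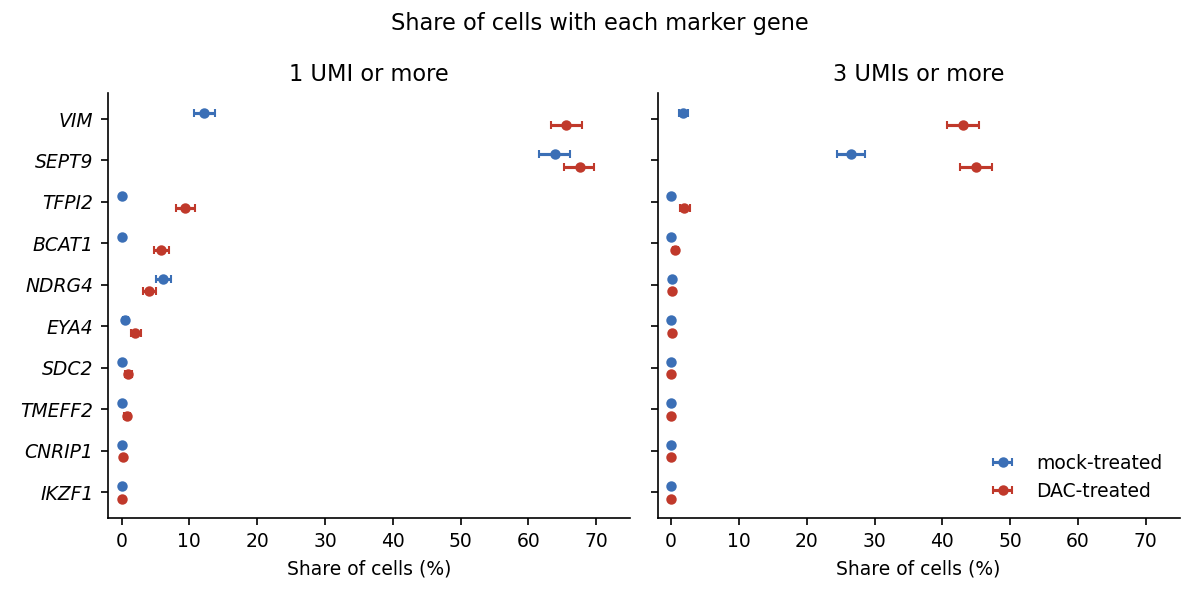
Share of cells (x axis, %) with at least 1 UMI (left) and at least 3 UMIs (right) of each marker gene in mock-treated (blue, 1783 cells) and DAC-treated (red, 1751 cells) cells, with exact binomial 95% intervals (up to 3 cells where none was positive). *VIM* was in 12.1% and 65.6% of cells, and in 1.74% and 43.1% at 3 UMIs, while *SEPT9* differed mainly in the right panel.

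The share of positive cells depended on how many UMIs a cell had. When the DAC-treated cells were split by total UMIs into 3 classes of equal size (low, middle and high depth), with medians of 2179, 35344 and 59133 UMIs, *VIM* was detected in 36.8%, 72.9% and 87.1% of the cells. Its CPM was 299.8, 508.4 and 485.6 in the same classes, so the level differed less than the share. *TFPI2* was detected in 2.05%, 9.08% and 16.8% of the cells, and *BCAT1* in 1.03%, 5.31% and 11.0%. *SEPT9* was found in 18.8% of the cells of low and 97.9% of those of high depth. The low-depth class of the mock-treated cells was deeper, with a median of 7375 UMIs, and there *SEPT9* was detected in 22.0% of the cells. In each class *VIM* was detected more often in DAC-treated cells, the mock-treated shares being 4.20%, 15.2% and 17.0%.

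**Figure D4:**
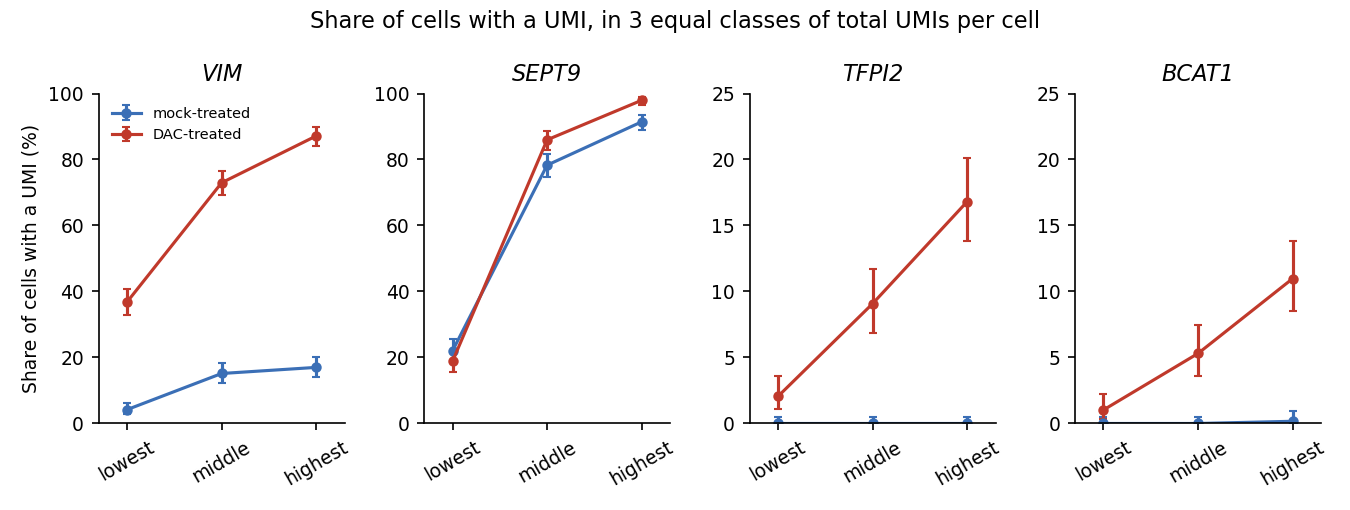
Share of cells with a UMI (y axis, %) of *VIM*, *SEPT9*, *TFPI2* and *BCAT1* in 3 classes of equal size by total UMIs per cell (x axis, from lowest to highest), for mock-treated (blue) and DAC-treated (red) cells, with exact binomial 95% intervals (up to 3 cells where none was positive). The y axis runs to 100% for *VIM* and *SEPT9* and to 25% for *TFPI2* and *BCAT1*; every share of DAC-treated cells increases with depth, and the *VIM* curves stay apart in all 3 classes.

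DAC-treated cells with *TFPI2* or *BCAT1* were compared with cells without it. *VIM* was found in 136 of the 163 *TFPI2*-positive cells (83.4%, 76.8 to 88.8) and in 63.8% of the *TFPI2*-negative cells. Positive cells were deeper, and at middle depth the shares were 73.6% and 72.9%, at high depth 90.8% and 86.4%. At low depth, with 12 *TFPI2*-positive cells, the shares were 66.7% and 36.2%. The intervals of the shares overlapped in all 3 classes. *BCAT1*-positive cells had *VIM* in 82.2% of cases against 64.6%. At low, middle and high depth the shares were 66.7% against 36.5%, 67.7% against 73.2% and 90.6% against 86.7%. *TFPI2* and *BCAT1* were found together in 17 cells, *BCAT1* being present in 10.4% of *TFPI2*-positive and 5.29% of *TFPI2*-negative cells. At low, middle and high depth these shares were 0% and 1.05%, 3.77% and 5.46%, and 15.3% and 10.1%. At 3 UMIs or more, at least 1 of the 10 genes was present in 491 mock-treated cells (27.5%, 25.5 to 29.7) and in 1038 DAC-treated cells (59.3%, 56.9 to 61.6). Without *SEPT9*, the shares were 1.79% and 44.1%. Without *SEPT9* and *VIM*, they were 0.0561% (1 cell) and 2.63% (46 cells), so in DAC-treated cells most of the cells with a marker gene other than *SEPT9* had *VIM*.

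The genes whose levels varied most like *VIM* over the 1120 DAC-treated cells with at least 10000 UMIs and at most 50% mitochondrial UMIs were *STMN1*, which encodes the microtubule regulator stathmin (Pearson's r = 0.363), *CKS1B*, a subunit of cyclin-dependent kinases (0.341), and *H2AFZ*, a histone variant (0.324). For *SEPT9* they were *ITGB4*, an integrin subunit (0.309), *ACTN4*, an actin crosslinker (0.288), and *CAP1*, an actin regulator (0.274). These are the highest of 11674 genes compared, are weak, and share cells and library, and are given as a description. The correlation with log2 total UMIs was 0.0786 for *VIM* and 0.131 for *SEPT9*.

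A list of 40 other genes proposed as methylation markers in colorectal cancer was examined in the same way. Of these, 21 had no UMI in mock-treated cells, 16 of which were detected in DAC-treated cells (all genes, 34.7%; protein-coding genes, 53.1%) and 5 in neither library. At 20 or more UMIs, 12 of 20 genes were at least 2-fold higher (all genes, 22.8%), none was at least 2-fold lower (7.86%) and 8 lay between. The lowest of the 20 had a log2 ratio of -0.87. It passes 2-fold lower under scaling by the median of gene ratios, which shifts each log2 ratio by -0.24. Of these 12, 10 had less than 20 UMIs in the mock-treated library and reached the minimum through the DAC-treated one, so the count describes them and does not set them apart. With no minimum, the median log2 ratio was 1.34 over 33 genes of this list, 2.17 over 9 of the 10 marker genes and 0.34 over 21034 genes, where 14 of the 33 and 4 of the 9 values are lower limits. The highest in DAC-treated cells among the 12 were *TWIST1*, a transcription factor of mesenchymal cells (3.17 to 9.06 CPM, ratio 2.86, 2.39 to 3.44), and *SFRP1*, a secreted WNT antagonist (0 to 8.89 CPM, at least 148-fold). The transcriptional repressor *HIC1* was 13.8-fold higher (0.160 to 2.22 CPM). *GATA4*, a transcription factor of endoderm, and *ITGA4*, an integrin subunit, had no mock UMI and were at least 23.4-fold and 20.9-fold higher. *SFRP1*, undetected in mock-treated cells like *TFPI2*, was found in 12.3% of the DAC-treated cells.

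Relatives of the marker genes in their families were compared, to see whether the differences were shared. Of 29 relatives, 23 had at least 20 UMIs, of which 5 were at least 2-fold higher (all genes, 22.8%), 3 at least 2-fold lower (7.86%) and 15 between, so the number of higher ones was about that of genes in general. Their median log2 ratio was 0.18. Of the 3 other intermediate filament genes on the list, *NES* (nestin) was 8.67-fold higher (5.67 to 49.2 CPM) and *DES* (desmin) 3.79-fold higher, while *LMNA* (lamin A/C), the most abundant of these 3, had a ratio of 1.37. *TFPI*, the inhibitor of tissue factor related to *TFPI2*, was at 37.5 CPM in mock-treated and 5.61 CPM in DAC-treated cells, a ratio of 0.149 (0.133 to 0.168). *TFPI* and *TFPI2* thus differed in opposite directions. *SDC4* and *SDC1*, syndecans like *SDC2*, were 2.61-fold and 3.56-fold higher, while *SDC3* had a ratio of 0.977. *SEPT7* and *SEPT3* had ratios of 1.23 and 0.394. *IKZF3*, *IKZF5* and *IKZF2* had ratios of 3.66, 1.05 and 0.458. The *IKZF2* ratio rests on 24 mock and 13 DAC UMIs, with an interval of 0.214 to 0.936. For *IKZF3*, 19 of the 39 DAC UMIs lay in 1 cell, and the ratio was 1.88 without it, which left 4 relatives at least 2-fold higher. In the other families, *NDRG1*, *EYA3* and *BCAT2* had ratios of 0.798, 1.46 and 0.941. *TMEFF1*, on both lists, had 4 mock and 3 DAC UMIs, and *CNR2*, which encodes the cannabinoid receptor CB2, had at most 3 UMIs in either library.

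**Figure D5:**
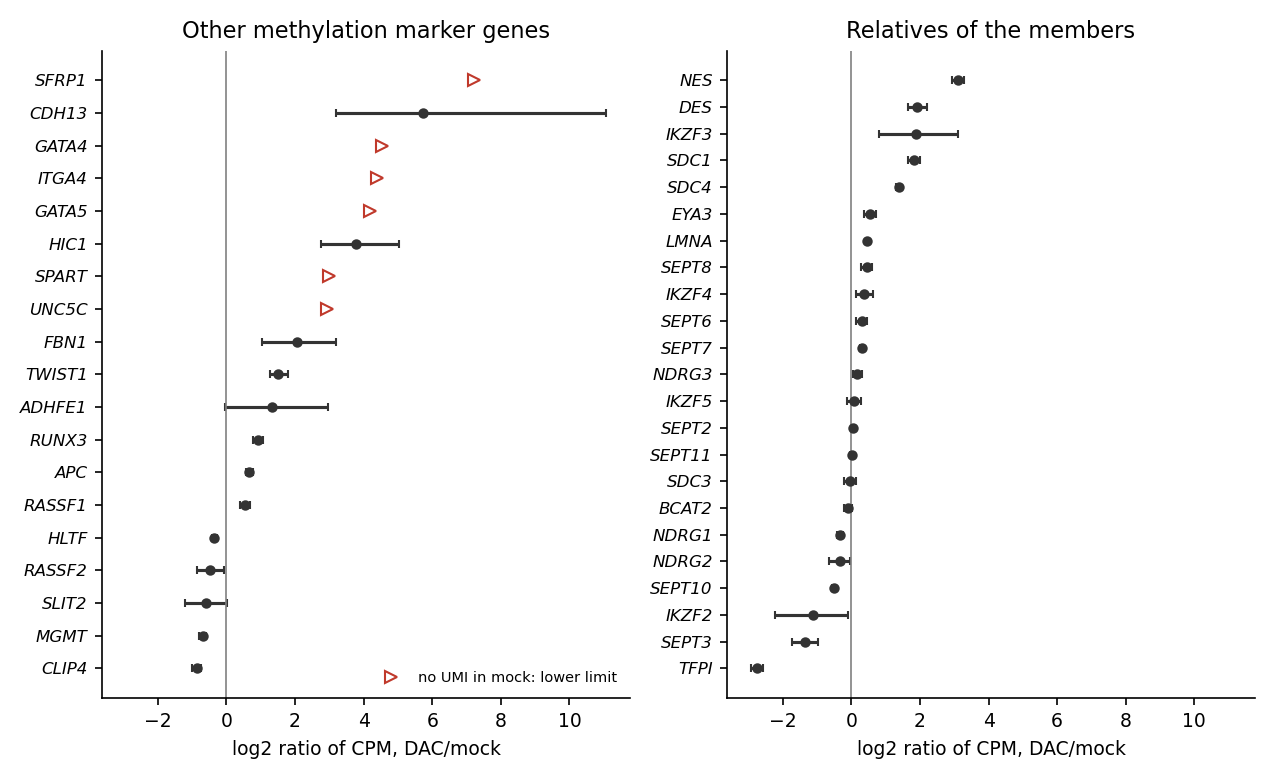
log2 ratio of CPM, DAC-treated over mock-treated, of other marker genes (left, 1 of 20 not shown) and 23 relatives (right) with at least 20 UMIs in both libraries together, with exact 95% intervals; open red triangles are lower limits for genes without a mock UMI. The left list reaches at least 148-fold for *SFRP1*, and the right list holds *NES* at 8.67-fold higher and *TFPI* at a ratio of 0.149.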

How the data were processed

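HCT116 cells, mock-treated or treated with DAC, were analyzed using the Chromium Single Cell 3′ v3 kit, 1 library each. The authors mapped reads to hg38 and counted UMIs using Cell Ranger, and the tables they deposited hold raw counts of UMIs, not normalized, with a value for each gene in each cell. All deposited cells were used, and no doublet caller was run. The annotation release and any filter on cells are not given in the sources used here.

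UMIs of each gene were summed per library and expressed per 1000000 UMIs of the library (CPM). Intervals were exact 95% ones (Poisson for UMIs, Clopper-Pearson for shares of cells, conditional binomial for ratios). A gene without a UMI in 1 library was set against a floor of 3 counts over the library, and no fold was given when both libraries had at most 3 counts. Genes with at least 20 UMIs in both libraries together entered counts of folds. Shares at equal depth were exact expected values at 10000 and 1007 UMIs per cell. Cells with at least 10000 UMIs and at most 50% mitochondrial UMIs were used for levels per cell. Correlations used log2(CPM + 10) and genes with a UMI in at least 10% of these cells. The 10 genes were found by name, and each of these names occurred once, although 24 names were repeated among all genes. Positions came from GENCODE release 44 and promoters from RefSeq (GRCh38.p14).

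The marker genes, the other lists and the comparisons were chosen with earlier results of these data known. Genes named from the other marker list were the 6 at least 2-fold higher ones with the highest CPM in DAC-treated cells, and up to 3 at least 2-fold lower ones; 1 of the 6 is not reported here. Of the relatives, the one with the highest mock CPM for each marker gene and each one past 2-fold were named. The alternatives were other scalings, cell filters, UMI thresholds and minimums. Calculations used Python 3.11.15, numpy 2.4.6, scipy 1.17.1, pandas 2.3.3 and matplotlib 3.10.9, and were tested on simulated data.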

Additional observations from a re-analysis of the deposited data

How the results depend on the processing

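Scaling by the median of gene ratios lowered every log2 ratio by a constant (shift of -0.24) and gave 1 marker gene at least 2-fold lower, *NDRG4*, where library totals gave 0. The median log2 ratio of 4.10 over 6 marker genes was 3.47 in cells with at most 20% mitochondrial UMIs, where *BCAT1* lost its mock UMI and entered as a lower limit of 5.02, 6.03 with a minimum of 100 UMIs, which left 5 genes, and 2.17 with no minimum, which gave 9. The share of cells with a marker gene at 3 UMIs or more was 27.5% of mock-treated and 59.3% of DAC-treated cells. It was 66.9% and 81.6% at 1 UMI, 45.9% and 67.9% at 2 UMIs, 9.93% and 48.0% at 5 UMIs, and 37.6% and 85.3% in cells with at least 10000 UMIs and at most 50% mitochondrial UMIs. Without the 5% of cells with the most UMIs, the mock-treated share was 24.7%. Over 7 settings the log2 ratio ranged from 5.64 to 6.32 for *VIM*, from 6.36 to 6.92 for *TFPI2* (all lower limits), from 6.62 to 7.04 for *BCAT1* in the 6 settings that kept its mock UMI, from 1.88 to 2.27 for *EYA4*, from 0.29 to 0.60 for *SEPT9* and from -1.13 to -0.47 for *NDRG4*, so no direction was reversed. No paired analysis was possible because each condition had 1 library. Leaving out, for each gene, the DAC-treated cell with the most of its UMIs was added after seeing the data. The number at least 2-fold higher was then 4 of 4 marker genes, 12 of 12 other marker genes and 4 of 5 relatives. The depth limits the genes with few UMIs most: the floor of 3 counts for a gene without a UMI is 0.168% of the mock-treated cells.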
